A study of Mus musculus with 16 samples.

Results

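The regions described here are stretches of mouse brain mRNA and non-coding RNA that carried an m6A peak in both MCAO/R-6 h libraries and in neither Sham library, called gained, or in both Sham libraries and in neither MCAO/R-6 h library, called lost. Overlap of 1 exonic base or more between 2 peaks of 1 strand made them 1 region, which left 40401 regions over the 4 lists, of which 1957 were gained and 819 were lost, 2776 in all. N6-methyladenosine (m6A) was mapped by MeRIP-seq, in which fragmented RNA is pulled down with an antibody against the modified base and sequenced beside unselected input RNA. Both groups were adult male C57BL/6J mice of 6 to 8 weeks, with 6 mice in each surgery group. In the MCAO/R-6 h group a filament closed the middle cerebral artery for 2 h and was then withdrawn for 6 h of reperfusion, whereas the Sham group had the same operation with no filament. RNA came from cortical tissue around the infarct, and each group had 2 immunoprecipitated (IP) libraries and 2 input libraries. The sources do not say whether the 2 libraries came from separate or pooled animals. No input library was analysed, and therefore a change in methylation cannot be told apart from a change in the amount of the RNA. In bulk tissue, fewer cells of a type and less RNA per cell cannot be told apart either.

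m6A is written on the nascent RNA by a METTL3 and METTL14 complex at RRACH, a core of 5 bases in which R is A or G and H is A, C or U. It is removed by FTO and ALKBH5, and is read by proteins such as the YTHDF family, which act on translation and decay. In most tissues the mark lies mainly in long internal exons and around the stop codon. In the ischaemic brain, reperfusion is followed within hours by transcription of immediate early, stress and inflammatory genes.

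Short windows around such a core show what gained and lost regions look like in genes that the results below turn on. Each is the GGACT core, or else another RRACH core, that lay nearest to the middle of the region, with flanks of 12 nt, read 5′ to 3′ from GRCm39 as DNA, and the capitals mark the core. The first 5 come from gained regions and the last 4 from lost regions, and Plxna2 appears on both sides. A core in a region is a description and does not place the methylated base.
Gpr101, 3′ UTR, chrX:56545207-56545235, minus strand: ctacggacataaGGACTatttggccttca
Zim1, 3′ UTR, chr7:6679550-6679578, minus strand: aggaattcaggtGGACTtttctctgccag
Myc, CDS, chr15:61861676-61861704, plus strand: cacctctgaaaaGGACTtattgaggaaac
Atf3, 3′ UTR, chr1:190903022-190903050, minus strand: gtgtggccacatGAACTggctggcaccag
Plxna2, CDS, chr1:194326198-194326226, plus strand: agaatcgtgactGGACTttcaaccatttg
Plxna2, CDS, chr1:194494386-194494414, plus strand: ctagagcaggatGAACAggcccgacggca
Creb1, 3′ UTR, chr1:64636563-64636591, plus strand: acggtggagaatGGACTggcttggccaca
Vezt, 3′ UTR, chr10:93805836-93805864, minus strand: gagaaaggtaagGGACTtttttaaaaaat
Npas4, CDS, chr19:5036956-5036984, minus strand: ctccaaagagctGGACTtcagttacctgc

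The Sham lists held 18775 and 20152 peaks and the MCAO/R-6 h lists held 22205 and 23200, or 19464 ± 974 and 22703 ± 704 (SD, n = 2). The lists carry no read counts, so the depth behind a peak is unknown. A region missing from a list is one that was not called there, not one shown to be unmethylated. Each peak has a score whose scale the sources used here do not give, and it is used below only as a percentile within its own list, where 100 is the highest score. A region's percentile in a list is that of its highest-scoring peak. The lists overlapped little even within a group. The 2 Sham lists shared 8728 of the 25395 regions in either, a Jaccard index of 0.344, and the 2 MCAO/R-6 h lists shared 10980 of 29504, an index of 0.372. Pairs of 1 Sham and 1 MCAO/R-6 h list had indices of 0.334 to 0.344, so the Sham pair was no more alike than the closest pair across groups.

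The 2 MCAO/R-6 h lists stood apart from the other 6 lists of the series in some of the genes that held peaks. Genes known for the hypothalamus and preoptic area, the deep forebrain that controls hormones, feeding and body temperature, held peaks at 6 h far more often than elsewhere. Of 49 such genes, the 6 h lists had a peak in 22 and 26, whereas Sham had 5 and 9, the 0 h lists 6 and 7 and the 24 h lists 6 and 9. The list was written after the leading gained genes had been seen. Without the 7 of its genes found among the 200 highest-ranking gained regions, 15 and 19 of 42 had a peak at 6 h, against 5 to 9 in the other 6 lists. These 42 were chosen at the same time, so leaving out the 7 does not undo that choice. The listed genes with peaks in each 6 h list but in none of the other 6 included the hypothalamic transcription factors Nkx2-1, Nkx2-4, Otp, Sim1, Six3, Fezf1 and Isl1. The others were the leptin receptor Lepr, the orphan receptor Gpr101, the insulin pathway adaptor Irs4, the GABA-A receptor subunits Gabrq and Gabre, and the imprinted gene Magel2. Lists of other brain regions, also written afterwards, differed less. Genes known for the cerebral cortex had a peak in 20 and 21 of 25 cases in Sham and 22 and 21 at 6 h, those of the striatum in 11 and 11 of 25 against 16 and 14, and those of the thalamus in 9 and 10 of 20 against 12 and 12. Most genes of the cortex list thus had a peak in each of the 4 libraries. Their summed peaks were 77 and 74 in Sham, 60 and 72 at 6 h and 67 to 77 at 0 h and 24 h, so 1 library at 6 h was the lowest. At 0 h and 24 h the striatum had 11 to 14 and the thalamus 8 to 11, so the thalamus at 6 h also stood above the other 6 lists, by a small margin. Summed peaks in striatum genes were 41 and 42 at 6 h and 28 to 37 in the other 6. The part of the hypothalamic genes in the results below was not tested, and results are given beside them where they bear on a count.

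**Figure D1:**
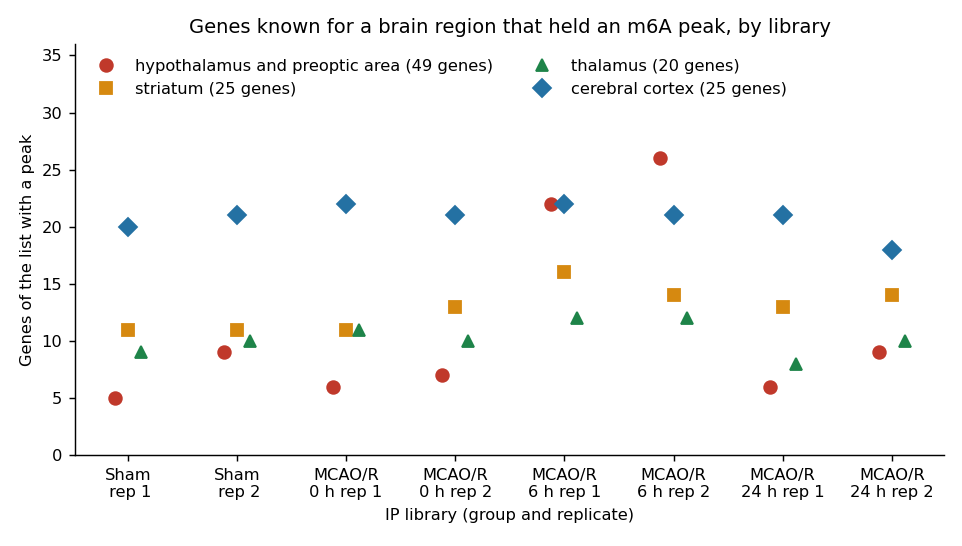
Number of genes, of 4 lists of genes known for a brain region, that held at least 1 m6A peak (y axis) in each of the 8 IP libraries (x axis). Each symbol is 1 library. The hypothalamus and preoptic area stood at 22 and 26 genes in the 2 MCAO/R-6 h libraries and at 5 to 9 in the other 6, while the cerebral cortex stood at 18 to 22 throughout.

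Across all genes, 144 had peaks in each 6 h list but in none of the other 6. The same count was 43 for the Sham pair, 68 for the pair at 0 h and 89 for the pair at 24 h, and 25 to 101 for the 24 pairs of libraries taken from different groups. The 144 genes included 13 of the hypothalamic list, and the sets of the other 3 groups included 0. Beside the listed genes, the 30 highest-ranking of the 144 held Galr1, the galanin receptor, Ghsr, the ghrelin receptor, Mrap2, an accessory protein of the melanocortin receptors, and Sgce, an imprinted sarcoglycan gene. These 4 were picked after their values were seen.

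The count by group was larger than that of either way of mixing the groups, and the excess lay with the gained regions. Gained regions made up 4.84% of the 40401 regions and lost regions 2.03%. When Sham replicate 1 was paired with MCAO/R-6 h replicate 1 and set against the other 2 lists, 876 regions (2.17%) and 1188 regions (2.94%) fell in both lists of one side and neither of the other. When Sham replicate 1 was paired with MCAO/R-6 h replicate 2, the sides held 933 (2.31%) and 945 regions (2.34%). The 3 splits therefore separated 2776, 2064 and 1878 regions. In the full lists the gained side was the largest of the 6 sides and the lost side the smallest. With 2 libraries a side an exact two-sided permutation test cannot give a p under 0.333, and no test was run.

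**Figure D2:**
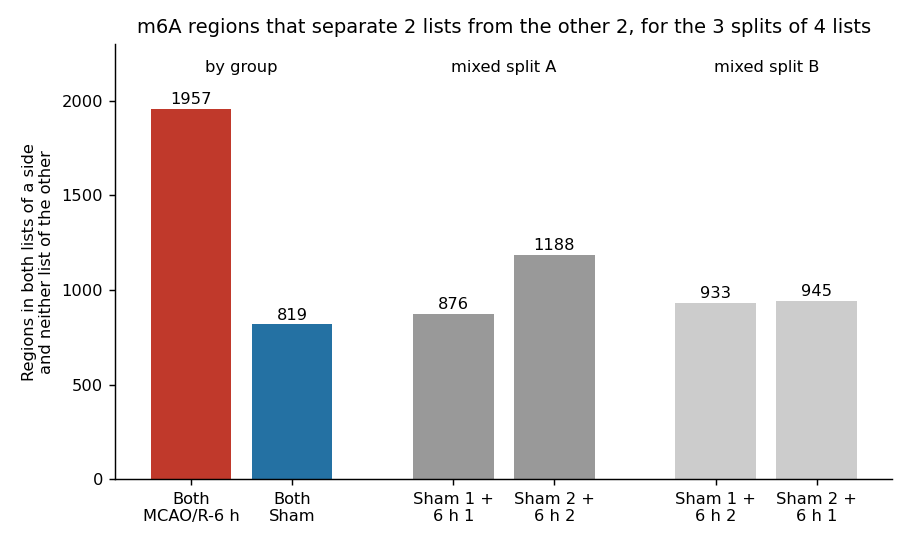
Number of regions found in both lists of one side and neither list of the other (y axis), for the 3 ways of splitting the 2 Sham and 2 MCAO/R-6 h lists into pairs. Mixed split A pairs like-numbered replicates of the groups and split B unlike-numbered ones. The gained side, at 1957, stood above the 4 mixed sides (876 to 1188), and the lost side, at 819, stood below them in these full lists.

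Part of the gap between gained and lost regions went with the length of the lists. With the 18775 highest-scoring peaks taken from each list, 1456 regions were gained and 922 lost, 2378 together, against 1783 and 1686 in the mixed splits. The lost side was then not the smallest, since at least 1 side of each mixed split held fewer regions. The hypothalamic genes carried a small part of the count. Without them 1933 regions were gained and 818 lost, and without the 144 genes found at 6 h alone 1867 were gained. Among the 50 highest-ranking gained regions 4 lay in genes of the hypothalamic list, against 24 among the 1957. That list was written after the leading gained genes had been seen, so its share at the top follows in part from how it was made.

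There were 1679 genes with a gained and 745 with a lost region, or 13.9% and 6.16% of the 12091 genes with a region. The sides of the mixed splits reached 6.72% and 9.05% of genes in the first split and 7.24% and 7.17% in the second. In 223 genes more than 1 region was gained, in 61 more than 1 was lost, and 145 genes had both a gained and a lost region. Most gained regions lay in genes that Sham also methylated. For 480 of them (24.5%), in 426 genes, the gene had no Sham peak. Another 363 (18.5%) had a Sham peak within 100 nt of exon, and the remaining 1114 lay further off. Of the lost regions, 114 (13.9%) were in 105 genes without a peak at 6 h and 205 (25.03%) had a 6 h peak within 100 nt. Whether these close pairs are 1 site with a shifted edge was not tested.

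The regions were ranked by the lower of the percentiles in the 2 lists that held them. Gained regions had a median of 32.4 and lost regions of 34.9, against 27.5 to 35.9 on the mixed sides and 62.3 for the 6376 regions in all 4 lists. The high end was not particular to the grouping. At a percentile of 90 or more there were 23 protein-coding genes with a gained region, 13 with a lost region, and 18, 3, 14 and 3 on the 4 mixed sides.

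Leading gained regions fell into a set found in no other list and a set shared with other times. The first set was led by Gpr101, the orphan receptor of the hypothalamus named above, whose 3′ UTR region of 1150 nt stood at percentiles of 99.2 and 99.3 in the MCAO/R-6 h lists. Gpr101 had 1 and 4 peaks in those lists and none in the other 6. Six3, a homeobox factor of the ventral forebrain, had a 3′ UTR region of 600 nt at 97.0 and 97.1, with 1 and 4 peaks and likewise none elsewhere. Isl1, a LIM homeobox factor of striatal and hypothalamic neurons, had a 3′ UTR region at 94.8 and 96.8. Hecw1, a ubiquitin ligase, and Mycbp2, a large ubiquitin ligase of axons, completed the 5 leading regions found at 6 h alone, with 96.1 and 96.5 for Hecw1 and 96.0 and 95.9 for Mycbp2. Both genes, unlike the first 3, had Sham peaks elsewhere, the nearest 2325 nt of exon away in Hecw1 and 4909 nt in Mycbp2. The region of Zim1, an imprinted zinc finger gene, held 950 nt of 3′ UTR at 97.0 and 98.0, and outside 6 h was found in 1 MCAO/R-24 h list at 12.9.

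Other leading gained regions were high in another group too. The region of Prr14l, at 99.95 and 99.93 in the MCAO/R-6 h lists, stood at 99.94 and 99.92 in the MCAO/R-0 h lists and was missing from both MCAO/R-24 h lists. It spanned 75 exonic nt across an intron. Ppig, a nuclear cyclophilin, had its region at 97.1 and 97.7 at 6 h and at 98.9 and 94.3 at 0 h. Catspere2, a gene of a sperm calcium channel, had its region at 96.2 and 95.8 at 6 h and at 95.8 and 98.0 at 0 h. Eea1, a tether of early endosomes, had 98.3 and 97.5 at 6 h and 86.3 and 87.9 at 0 h. Ncor1, a nuclear receptor corepressor, had 95.3 and 97.2 at 6 h, and was found in 1 list at 0 h and 1 at 24 h. These regions were thus not particular to 6 h, and the Sham lists held peaks 50 to 75 nt of exon away in Ncor1 and Ppig.

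Lost regions led a mirror set that was mostly present at other times. Creb1, the cAMP response transcription factor of activity-dependent expression, had a 3′ UTR region of 350 nt, 131 nt past the stop codon, at 96.3 and 96.6 in the Sham lists. It was found in 3 of the 4 MCAO/R-0 h and MCAO/R-24 h lists at 95.5 to 97.5 and in neither 6 h list. Arpp19, an inhibitor of the phosphatase PP2A, had its region at 94.7 and 94.5 in Sham and at 86.4 to 95.3 in all 4 other lists, and had no peak at 6 h anywhere in the gene. Vezt, a cell junction protein, stood at 92.9 and 96.8 in Sham and at 93.6 to 97.3 in the 4 other lists. Plxna2, a semaphorin receptor, stood at 94.2 and 92.9 in Sham and at 87.8 to 90.1 in the others, with a 6 h peak 100 nt away. These 4 regions were missing at 6 h alone among the groups. Tusc3, an oligosaccharyltransferase subunit, stood at 97.3 and 99.3 in Sham, at 98.2 and 97.3 at 0 h, and was missing at 6 h and 24 h. Zfp866, a zinc finger gene, had the same pattern in its 5′ UTR, with 97.3 and 98.3 in Sham. Epha4, an ephrin receptor of axon guidance, Ppp1r9a, the actin-binding neurabin of dendritic spines, Prrc2c, a protein of stress granules, and Syne1, a nuclear envelope spectrin, completed the 10, at 91.4 to 95.6 in Sham. The Ppp1r9a region was found in no list outside Sham.

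**Figure D3:**
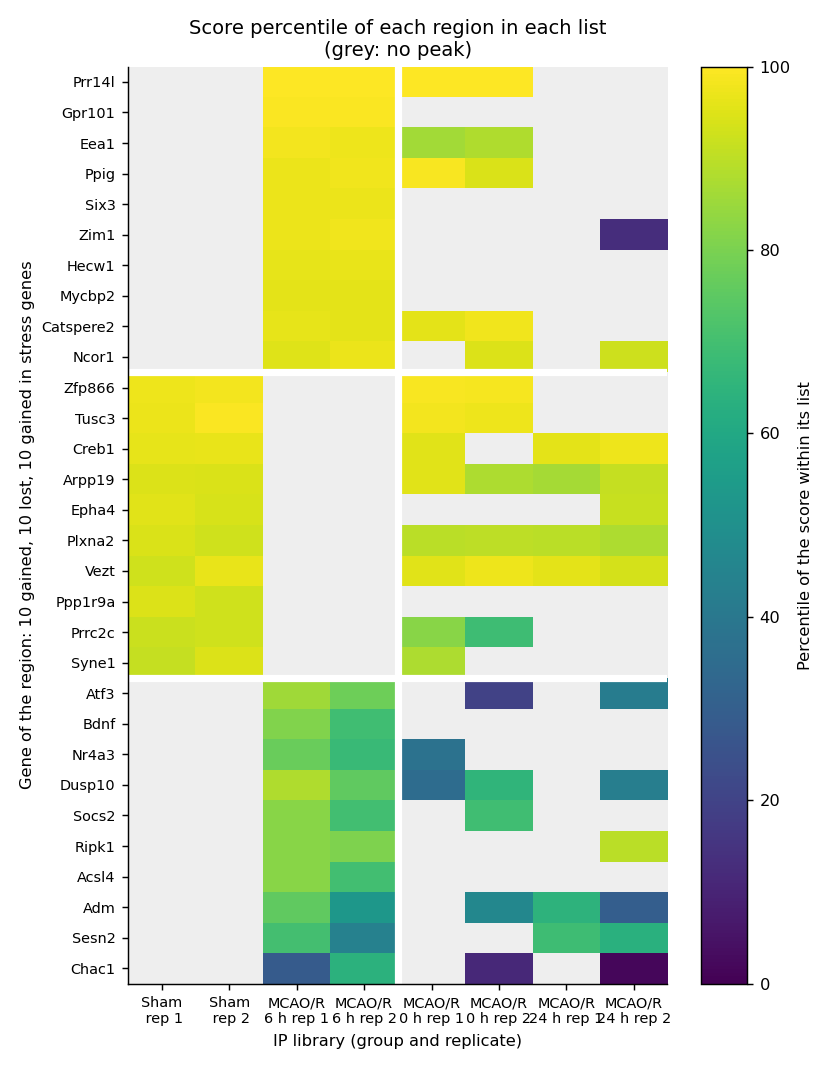
Percentile of the score within its list (colour, 0 to 100) of 30 regions (rows, by gene) in the 8 IP libraries (columns), with grey where no peak was found. The 10 leading gained regions, the 10 leading lost regions and 10 gained regions in stress and inflammation genes are separated by white lines. Blank Sham or 6 h cells follow from how the regions were chosen. The columns for 0 h and 24 h show leading lost regions such as Vezt and Plxna2 in all 4 of those lists, and Gpr101 and Six3 in none.

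Several regions were gained or lost in the same gene. The homeobox gene Zfhx3 had 7 gained regions, all in coding sequence, and its number of peaks went from 3 and 5 in Sham to 18 and 23 at 6 h, with 5 to 10 at 0 h and 24 h. Its relative Zfhx4 had 4 gained regions but 7 and 14 peaks in Sham against 14 and 20 at 6 h, so its Sham and 6 h counts met. Zim1 had 6 gained regions, with 0 and 1 peaks in Sham, 9 and 7 at 6 h and 0 to 2 elsewhere. Prlr, the prolactin receptor, had 4, with no Sham peak, 4 and 7 peaks at 6 h and 1 peak in 1 of the other lists. Dst, a cytoskeletal linker with 103 exons in the transcript used, had 6. On the lost side Syne1 had 5, Akap9, a centrosomal anchor, and Fry, a microtubule-binding protein, had 4 each, and the ubiquitin ligase Huwe1 and the axon initial segment protein Ank3 had 3 each. These 5 are long genes of many exons, and their best lost region ranked between percentiles of 35.8 and 91.4.

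Gained regions in genes of stress and inflammation were of lower rank than the leaders. Of 32 genes of inflammation and innate immunity with a region, 8 (25%) had a gained and 2 (6.25%) a lost region, against 13.9% and 6.16% of all genes. The 4 mixed sides held 2, 4, 0 and 2. The summed number of peaks in this list was 37 and 43 in Sham and 67 and 73 at 6 h, without overlap. The whole lists did not overlap either, with 18775 and 20152 peaks against 22205 and 23200. The sum for inflammation was 42 and 71 at 0 h and 57 and 71 at 24 h, so 6 h did not stand apart from the other times. With the higher-scoring 50% of each list, 1 gene had a gained and 1 a lost region. Cd14, the lipopolysaccharide co-receptor of myeloid cells, had no Sham peak and 2 and 8 peaks at 6 h. Socs3, the feedback inhibitor of cytokine signalling, had 0 and 1 peaks in Sham and 4 and 5 at 6 h. Socs2, of the same family, had 1 and 2 in Sham and 7 and 5 at 6 h, and its 3′ UTR region stood at 82.3 and 69.7. Socs5 had 4 and 3 peaks against 5 and 5. Icam1, the leukocyte adhesion molecule, had no Sham peak and 1 peak in each 6 h list, centred 26 nt past the stop codon. Tnfaip3 and Rel, an inhibitor and a subunit of NF-κB, had 0 and 1 peaks each in Sham, and 3 and 3 for Tnfaip3 and 4 and 2 for Rel at 6 h. Il6st, the shared receptor of interleukin 6 cytokines, had both a gained and a lost region, and the interleukin 1 receptor Il1r1 had a lost one.

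Genes of endoplasmic reticulum stress and of heat shock gave small numbers. Of 13 genes of endoplasmic reticulum stress with a region, 4 had a gained and 1 a lost region, and the mixed sides held 0, 1, 1 and 0. With the higher-scoring 50% of each list both counts were 0. Chac1, the glutathione-degrading enzyme, had 1 peak in each Sham list and 2 and 4 at 6 h. Asns, asparagine synthetase, had none in Sham and 1 in each 6 h list, at percentiles of 1.64 and 27.8. Sesn2, a stress-induced inhibitor of mTOR signalling, had a 3′ UTR region at 70.0 and 43.9, which was also found in both MCAO/R-24 h lists. Eif2ak3, the stress kinase PERK, had 1 and 4 peaks in Sham and 5 and 6 at 6 h. Herpud1 held the lost region. Of 19 heat shock genes, 2 had a gained and 4 a lost region, and the mixed sides held 1, 0, 0 and 2. Over all genes the shares were 13.9% and 6.16%. The summed peaks of the heat shock list overlapped between groups, at 25 and 19 in Sham and 21 and 12 at 6 h. The lost regions lay in Hspa4l, Hsph1, Dnajb1 and Hspa1a, at 17.2 to 88.8 in Sham. Both gained genes, Hspa1a and Hspa4l, were thus among the lost ones too. Hspa1a has the near-identical copy Hspa1b, and reads that mapped to several places were removed by the authors, so its calls are uncertain.

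Counts for immediate early genes, here transcription factors and others such as Bdnf and Ccn1, depended on how deep into the lists peaks were taken. Of 35 with a region, 7 had a gained and 3 a lost region, against 13.9% and 6.16% of all genes, and the mixed sides held 4, 8, 1 and 1. With the higher-scoring 50% of each list, 11 had a gained and 0 a lost region, against 974 and 400 of 7310 genes in all. A gained region can then still overlap a lower-scoring Sham peak. The summed peaks of this list overlapped between groups, at 60 and 70 in Sham and 64 and 75 at 6 h. Atf3, the injury-induced repressor, had no Sham peak and 2 peaks in each 6 h list, its leading 3′ UTR region at 85.9 and 77.8. It also had 1 to 3 peaks in each list at 0 h and 24 h. Klf6 had 3 and 2 peaks in Sham and 6 and 6 at 6 h, and Maff had 0 and 1 against 2 and 4. A 5′ UTR region of the neurotrophin gene Bdnf stood at 81.2 and 69.4 at 6 h and in no other list, 3325 nt from a Sham peak. Bdnf has alternative first exons, and this region lay outside the transcript used for the stop codon. The neuronal activity factors Fosb and Npas4 were on the lost side, with 3 and 3 peaks in Sham against 1 and 1 for Fosb and 3 and 2 against 1 and 0 for Npas4. Gadd45g, a growth arrest gene, had 1 and 2 peaks in Sham and none at 6 h. Klf10, Ccn1 and the nuclear receptor Nr4a3 were the other gained members. Of 12 genes of neurotrophins and their receptors, 4 had a gained region (Bdnf, Ntrk2, Ntrk3 and Gfra1) and 1, Ntrk2 again, a lost region, against 1, 2, 2 and 1. The MAP kinase phosphatases had 2 of 10 gained, in Dusp10 and Dusp16, 0 lost, and 0, 0, 1 and 1 on the mixed sides.

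Cell death and redox genes gave few calls. Of 18 genes of ferroptosis and antioxidant defence, 3 had a gained and 1 a lost region, and each mixed side held 1. Acsl4, which makes the phospholipids oxidised in ferroptosis, had no Sham peak and a coding region at 82.2 and 69.8. Aifm2, the ferroptosis suppressor FSP1, had none in Sham and 2 peaks in each 6 h list. Bach1, a repressor of antioxidant genes, was gained and Srxn1, sulfiredoxin, was lost. Of 28 genes of the p53 pathway and cell death, 3 had a gained region (Ripk1, Birc3 and Aen) and Bbc3, which encodes PUMA, a lost one, against 2, 1, 3 and 2. Ripk1, the necroptosis kinase, had 0 and 1 peaks in Sham and 5 and 5 at 6 h. Trp53 itself had no peak in the 4 lists and 1 peak in MCAO/R-0 h replicate 1 and in MCAO/R-24 h replicate 2. Slc7a11, the cystine importer, had 1 peak in each of the 8 lists, and Gpx4, the lipid peroxidase of ferroptosis, had none in any list.

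The m6A machinery did not stand out. Of 17 writers, erasers and readers with a region, 3 had a gained region (Rbm15, Zc3h13 and Mettl16) and 2 a lost one (Wtap and Prrc2a), and the mixed sides held 2, 2, 1 and 1. Ythdf1, Ythdf2 and Ythdf3 had no gained or lost region, and 2, 2 and 3 of their regions were in all 4 lists. Ythdf1 had 5 and 3 peaks in Sham and 6 and 4 at 6 h. Mettl3 had 1 peak in Sham replicate 2 and none at 6 h.

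Many neuronal and chromatin genes held several regions, and a gene with more regions has more chances of a call. Voltage-gated ion channel genes held 325 regions, of which 13 were gained and 7 lost. For histone-modifying enzymes these were 22 and 10 of 469, and for axon guidance genes 13 and 5 of 265. Such shares were near the 4.84% and 2.03% of all 40401 regions. Glutamate receptor and scaffold genes had 8 and 9 of 197, and inhibitory synapse genes 5 and 1 of 65. The counts below are of genes, against 13.9% and 6.16% of all genes. Voltage-gated ion channels had 13 gained and 7 lost genes of 50, and 10, 4, 9 and 3 on the mixed sides. High-ranking gained ones included Kcnd2 and Kcna2, potassium channel subunits, and Scn1a, a sodium channel. Lost ones included the calcium channel genes Cacna1e and Cacna1i, while the calcium channel gene Cacna1b and the potassium channel gene Kcnq5 had both. Histone-modifying enzymes had 14 gained and 10 lost genes of 49, near the mixed counts of 11, 8, 12 and 10. Among them Kmt2e, Setd2 and Kdm5b were gained, Kat6a, Kat6b and Crebbp were lost, and Jmjd1c was both. Axon guidance genes had 12 gained and 5 lost of 52, against 3, 11, 4 and 8. Plxna2 had a gained coding region at 71.5 and 81.2 beside its lost one. Robo1, Sema6a and Dcc were gained, and Epha5 and Ntng1 were lost. Glutamate receptor and scaffold genes had more lost than gained members, 8 and 5 of 38, and the mixed sides held 6, 5, 3 and 1. Cacng2, an AMPA receptor partner, stood out among the gained regions at 92.5 and 93.5, with a Sham peak 100 nt away. Grik3 and Cacng3 were lost, and the NMDA receptor gene Grin3a and the metabotropic receptor gene Grm2 had both. Inhibitory synapse genes had 5 gained and 1 lost of 18, against 0, 2, 5 and 4. Gabra2, Gphn, Gabrb1 and Gabbr1 were gained, and Nlgn2 had both.

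The remaining lists were small or even. Wnt pathway genes had 4 gained and 4 lost of 38, hypoxia and vascular genes 2 and 2 of 26, presynaptic genes 2 and 2 of 26, and autophagy and mTOR genes 2 and 0 of 28. Adm, the vasodilator adrenomedullin, had no Sham peak and 1 and 2 peaks at 6 h, and its 3′ UTR region was also found in 3 of the 4 lists at 0 h and 24 h. Cell type markers gave 2 gained and 0 lost genes of 5 for neurons (Nefm and Rbfox3), 1 and 1 of 8 for astrocytes (Sox9 both ways), and 2 and 1 of 7 for microglia and myeloid cells (P2ry12 both ways and Itgam gained). They gave 1 and 0 of 6 for the oligodendrocyte lineage (Olig2) and 0 and 0 of 8 for endothelial and mural cells. Of 10 neutrophil markers 1 had a peak in 1 Sham list and none in the 6 h lists. The genes of the cerebral cortex list had 0 gained and 5 lost, Cux1, Rasgrf2, Rprm and Tbr1 among them, of 23, and 0, 1, 4 and 3 on the mixed sides. Those of the hypothalamic list had 16 gained and 1 lost, of 29, and 0, 0, 0 and 1 on the mixed sides. No list was tested, and these counts stand beside the 13.9% and 6.16% of all genes with a gained and a lost region.

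In the share near the stop codon, in the 3′ UTR and in long internal exons, gained and lost regions were nearer to the mixed sides than to the regions in all 4 lists. The middle of the region lay in coding sequence for 51.1% of gained and 56.3% of lost regions, with 95% Wilson intervals of 48.9 to 53.3 and 52.9 to 59.6 that cover counting error only. The 3′ UTR held 29.9% and 27.7%, against 26.8% to 34.0% on the mixed sides, and the 5′ UTR 6.29% and 6.23%. On the mixed sides 51.2% to 57.1% lay in coding sequence, and of the regions in all 4 lists 52.4% lay in coding sequence, 37.9% in the 3′ UTR and 3.54% in the 5′ UTR. The share within 200 nt of the stop codon was 16.3% for gained and 16.4% for lost regions, 14.5% to 20.2% on the mixed sides and 24.7% for regions in all 4 lists. Among regions in internal exons, 43.3% of gained and 39.9% of lost ones lay in exons of 400 nt or more, against 34.6% to 45.2% on the mixed sides and 77.2% of those in all 4 lists. Non-coding exons held 12.7% of gained, 9.65% of lost and 7.53% to 11.6% of mixed regions.

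**Figure D4:**
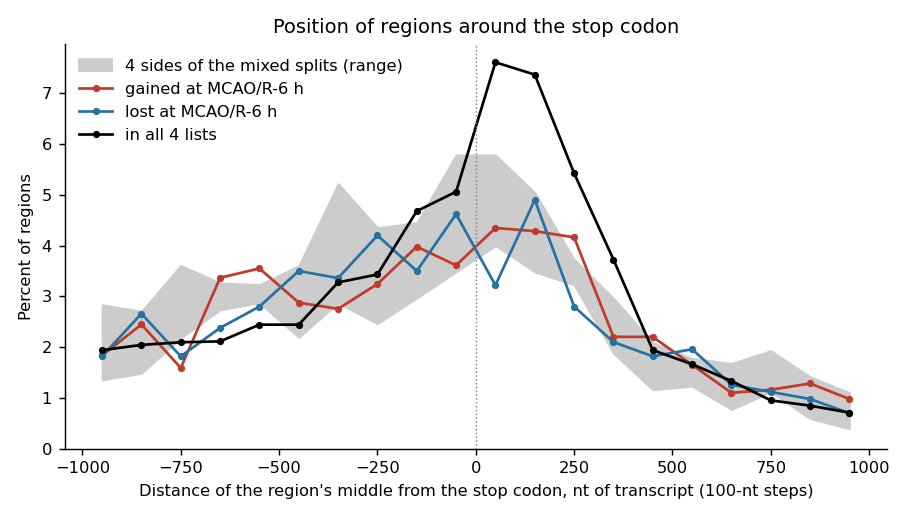
Share of regions (y axis, percent of regions on a coding transcript) by the distance of their middle from the stop codon in steps of 100 nt (x axis, negative towards the start). Regions in all 4 lists peaked at 7.61% in the first 100 nt past the stop codon, where gained regions stood at 4.35% and lost regions at 3.22%. The grey band is the range of the 4 mixed sides.

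The length of the regions and the share with an RRACH core were also nearer to the mixed sides than to the shared regions, but the number of GGACU per kb did not follow that order. Gained regions had a median of 175 exonic nt and lost regions of 136, against 125 to 150 on the mixed sides and 400 for regions in all 4 lists. An RRACH core was present in 87.9% of gained, 85.2% of lost, 81.7% to 87.9% of mixed and 98.4% of shared regions, but longer regions have more room for it. Per kb the numbers were 17.5 in gained, 16.7 in lost, 16.2 to 17.6 in mixed and 18.9 in shared regions. GGACU, which is 1 form of RRACH, was present in 22.9%, 20.4%, 17.2% to 26.7% and 46.4%, or 1.41, 1.51, 1.39 to 1.80 and 1.502 per kb. A peak across an intron was part of 23.7% of gained and 25.9% of lost regions, against 21.3% to 24.2% of the mixed and 21.5% of the shared ones.

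lncRNA genes held 7.56% of gained and 6.59% of lost regions, against 3.65% to 7.41% on the mixed sides. The leading gained regions in non-coding genes were those of Gm26827 at 99.6 and 99.3, Lrrc55os at 96.9 and 97.3, Gm43031 at 94.9 and 97.8, Gm43322 at 94.1 and 94.3 and 9430091E24Rik at 95.7 and 94.0. Gm43031 alone of the 5 had no region in the 0 h and 24 h lists. The leading lost ones ranked lower, at 64.6 to 78.8 in the lower list. They were Gm20481, Gad1os, antisense to the GABA-synthesising gene Gad1, G630055G22Rik, Gm45441 and Gm37885.

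The lists of MCAO/R-0 h and MCAO/R-24 h took no part in the choice of regions, and showed how far gained and lost regions recurred. Gained regions were found in 34.4% and 46.7% of cases in the MCAO/R-0 h lists and in 34.3% and 44.0% in the MCAO/R-24 h lists. Lost regions were found in 39.3% and 47.4%, and in 29.8% and 37.4%. The mixed sides spanned 33.4% to 37.8%, 46.0% to 51.0%, 28.2% to 33.2% and 30.8% to 42.6% in the same 4 lists. Gained regions therefore stood above lost ones and above the highest mixed side in both 24 h lists. At 0 h they stood below lost ones in both lists and within the range of the mixed sides. Regions in all 4 lists recurred in 87.3% to 94.0%. With 4 lists no test over libraries was made.

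**Figure D5:**
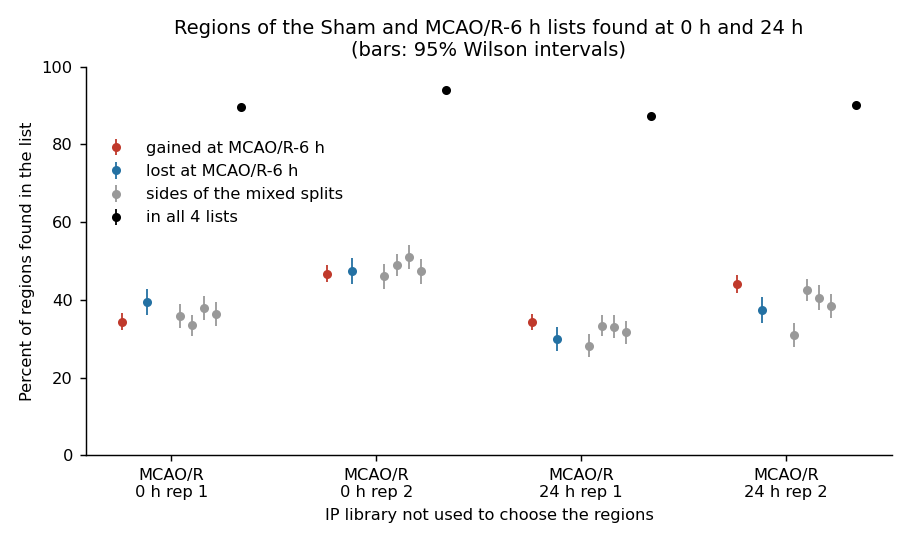
Share of regions (y axis, percent, bars 95% Wilson intervals) that overlapped a peak of each 0 h and 24 h list by 1 exonic base or more (x axis). Gained and lost regions lay between 29.8% and 47.4%, close to the 4 mixed sides in grey, and regions in all 4 lists lay between 87.3% and 94.0%.

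Of the gained regions 458 (23.4%) were in none of these 4 lists and 150 (7.66%) in all 4 of them, and of the lost regions 196 (23.9%) and 69 (8.42%). The mixed sides had 20.8% to 28.4% in none and 5.48% to 8.84% in all 4. A region called gained was thus about as often unique to its 2 lists as a region of a mixed side. The leading gained regions found in all 4 other lists were those of Zfhx4, Shld3, a DNA repair factor, Jph1, a junctophilin, Dhdh and Myc. The coding region of Myc, 625 nt long, stood at 81.2 and 86.9 at 6 h, at 7.16 and 8.21 at 0 h and at 76.6 and 87.0 at 24 h. Its percentile was thus high at 6 h and 24 h and low at 0 h. Among lost regions found in all 4, Galnt1 and Akap11, a kinase anchor, followed Arpp19, Plxna2 and Vezt. The leading lost regions found in Sham alone were, after Ppp1r9a, those of Sel1l, an adaptor of ER-associated degradation, Fam193a, Gpd2, the mitochondrial glycerol phosphate dehydrogenase, and Aak1, an endocytic kinase.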

How the data were processed

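The authors trimmed reads with Trim Galore, aligned them to GRCm39 with HISAT2, used SAMtools to remove reads without a unique place, and called the peaks of each IP library with exomePeak2 (p of 0.05, log2 fold change of 0.5). The deposited BED lists hold, per the files, 1 line a peak with introns included and a score of unstated scale, which was used only as a rank. The labels and the study differ on fragment length, and read depth is unknown. Here, peaks were cut to GENCODE M39 exons, joined into regions and classed with Python 3.11.15 scripts, tested on simulated peaks. CDS was given before UTRs, and stop codon distances were measured on each gene's transcript of greatest coding length. Named genes were the 10 leading protein-coding genes each way, up to 4 a list, and 5 each by number of regions, by presence at other times and among non-coding genes, plus genes the study discusses; further list members were named after their values were seen. The regions and lists were chosen with earlier results of these data known. Input libraries were not used here. Of 39 immediate early names, 38 matched.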

Additional observations from a re-analysis of the deposited data

How the results depend on the processing

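In 9 of 9 settings that gave the 3 splits, the split by group separated more regions than either mixed split and more regions were gained than lost. With the higher-scoring 50% of each list, 1096 regions were gained and 435 lost, 1531 together, against 1020 and 853 in the mixed splits. Each list then holds fewer peaks, and the cause of the change in these counts was not tested. Leaving out 1 library gave 3221 to 9336 gained and 1555 to 6416 lost regions, since 1 list then stands for a side. Gained regions in CDS made up 54.1% with the same number of peaks from each list and 54.9% with the higher-scoring 50%, where lost regions reached 31.7% in the 3′ UTR and 3.91% in the 5′ UTR. Without 1 library the 3′ UTR share ranged from 26.5% to 32.3% for gained and from 25.1% to 30.9% for lost regions. Counting a peak within 100 nt of exon as found gave 47.8% of gained and 52.1% of lost regions at 0 h, and 46.1% and 42.9% at 24 h, and the higher-scoring 50% gave 47.0% of lost regions at 0 h. The cause of these shifts was not tested. Of 96 counts of genes in lists under fewer peaks, 34 moved by more than 1.5 times, and inflammation fell from 8 gained genes to 7 with equal lists and to 1 with the higher-scoring 50%. Leaving out the hypothalamic genes, or those found at 6 h alone, was chosen after seeing the data. No paired analysis was possible because these counts of regions come from no test. Lists without counts limit every absence.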

Other observations

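Imprinted genes, which are expressed from 1 parental copy and many of which act in the hypothalamus, held more gained than lost regions. The list was written after Zim1, Magel2 and Sgce had been seen. Of 29 imprinted genes with a region, 13 had a gained and 5 a lost region, and the 4 mixed sides held 1, 3, 1 and 3. These genes held 172 regions, against 40401 regions for 12091 genes in all, and a gene with more regions has more chances of a call. Gained regions were in 44.8% and lost regions in 17.2% of the imprinted genes, against 13.9% and 6.16% of all genes. Their summed number of peaks was 71 and 60 in Sham, 98 and 106 at 6 h, 63 and 74 at 0 h and 69 and 76 at 24 h. Both 6 h sums were the highest, but this follows in part from how the list was made. Of the genes seen beforehand, Zim1 had 9 and 7 peaks at 6 h, Magel2 3 and 7 and Sgce 2 and 3. The sums were not made again without them, or without Kcnq1ot1, whose counts follow. Kcnq1ot1, a long non-coding RNA of the Kcnq1 domain, had 12 and 9 peaks in Sham, 22 and 26 at 6 h and 9 to 15 elsewhere. Plagl1, a zinc finger gene, had 1 and 1 in Sham, 5 and 7 at 6 h and 3 in each other list. Ndn, which encodes necdin, went the other way, with 2 and 3 peaks in Sham, none at 6 h and 1 to 3 elsewhere. Magel2 and Peg10 are also in the hypothalamic list, and the part of tissue makeup in these counts was not tested.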
